A study of Mus musculus with 6 samples.

Results

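The epidermal differentiation complex (EDC) is a cluster of genes on mouse chromosome 3 whose products build the cornified envelope, the tough protein shell of the outermost skin cells. It was taken here as the probes that are not controls and start between positions 92000000 and 93600000 of chromosome 3 on genome build mm9. This window of 1.6 Mb held 403 of the 174638 such probes on the array. With 1 probe left out for a spot flag, the other 402 fell into 54 of the 21987 regions formed from all probes, a region being a run of at least 3 probes with starts at most 1000 bp apart. Liver DNA came from mouse offspring at 32 weeks of age whose mothers (dams) had received a chromium restriction diet (3 arrays, called R1, R2 and R3) or a control diet (3 arrays, called C1, C2 and C3). The labels name no strain, sex, litter or allele, and p-values therefore measure only the spread between these arrays. The tissue label gives liver while the extraction label names fat, and tissue markers were not analysed here. Methylated DNA was pulled down with an antibody (MeDIP), labelled red and hybridised beside green input DNA of the same sample. The level of a probe is its log2 ratio of immunoprecipitated over input signal, centred on the median probe of the array, and a higher level is taken as more methylated DNA.

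As background, the proteins of the complex fall into a few classes. Loricrin (Lor) and involucrin (Ivl) form the bulk and the scaffold of the cornified envelope, the small proline-rich (Sprr) and late cornified envelope (Lce) proteins are cross-linked into it, and filaggrin (Flg) bundles keratin filaments. S100 proteins such as S100a10 and S100a11 are calcium-binding proteins at the edge of the cluster with wide expression. Most of these genes are silent outside stratified epithelia, so liver is a tissue in which the cluster is largely unused. DNA methylation in mammals lies mainly on the cytosine of CpG dinucleotides, and a methylated stretch with few CpG gives little material to the antibody.

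The CpG content of promoters in the complex is shown first because the antibody binds methylated cytosine, which in mammals lies mainly at CpG. The RefSeq gene table of build GRCm38.p6 held all 56 genes listed for the complex, and 48 of them had a promoter sequence. Over the 250 bases before the start, these 48 promoters had a median of 1 CpG (range 0 to 11), against a median of 6 in the 26977 promoters of other genes. No CpG was present in 18 of the 48 (37.5%) and in 8.21% of the other promoters, and at most 2 were present in 44 of the 48 (91.7%) against 29.5%. The 20 Lce promoters had a median of 0.5 CpG and the 14 Sprr promoters a median of 1. The motif TGANTCA, with any base at N, reads the same on both strands. It takes in the core bound by AP-1, a factor long studied in keratinocyte genes, but is wider than that core. TGANTCA occurred in 18 of the 48 (37.5%) and in 6.81% of the other promoters. These sequences belong to the named genes on GRCm38.p6, and the array positions are on mm9. Genes were not assigned to regions, so it was not analysed here which listed genes lie inside the window, and the positions of the 2 builds cannot be set side by side. One promoter per protein class follows, 5′ to 3′ on the gene's strand (minus strand for Lor, Ivl, Sprr1a and Lce1a1, plus strand for Flg and S100a11), ending at the base before the start, with each CpG in capitals. Ivl, Sprr1a and Lce1a1 have 0 capitals, Lor and Flg have 1 CpG each, and S100a11, with 11, is the highest of the 48.
Lor: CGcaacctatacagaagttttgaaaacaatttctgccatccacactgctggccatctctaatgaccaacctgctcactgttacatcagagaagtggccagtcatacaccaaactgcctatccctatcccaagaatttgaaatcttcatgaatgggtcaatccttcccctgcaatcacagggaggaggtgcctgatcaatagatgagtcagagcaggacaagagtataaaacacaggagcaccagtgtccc
Ivl: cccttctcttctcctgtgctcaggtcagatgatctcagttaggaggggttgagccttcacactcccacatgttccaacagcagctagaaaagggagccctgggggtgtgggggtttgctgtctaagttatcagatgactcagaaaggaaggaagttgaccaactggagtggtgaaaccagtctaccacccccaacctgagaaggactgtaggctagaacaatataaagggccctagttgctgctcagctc
Sprr1a: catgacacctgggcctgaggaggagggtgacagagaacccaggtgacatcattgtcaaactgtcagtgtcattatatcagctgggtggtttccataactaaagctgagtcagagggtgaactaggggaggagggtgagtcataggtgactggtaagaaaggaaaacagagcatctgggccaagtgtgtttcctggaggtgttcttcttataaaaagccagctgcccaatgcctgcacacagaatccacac
Lce1a1: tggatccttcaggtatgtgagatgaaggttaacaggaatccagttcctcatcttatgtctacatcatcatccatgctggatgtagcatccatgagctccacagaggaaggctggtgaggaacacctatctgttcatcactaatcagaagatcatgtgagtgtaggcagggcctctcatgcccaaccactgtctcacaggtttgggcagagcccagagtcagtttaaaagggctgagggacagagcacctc
Flg: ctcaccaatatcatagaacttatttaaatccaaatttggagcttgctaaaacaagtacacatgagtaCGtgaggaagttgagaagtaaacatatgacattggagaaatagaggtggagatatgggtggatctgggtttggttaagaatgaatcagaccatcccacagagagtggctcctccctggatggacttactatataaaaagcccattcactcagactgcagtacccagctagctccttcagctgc
S100a11: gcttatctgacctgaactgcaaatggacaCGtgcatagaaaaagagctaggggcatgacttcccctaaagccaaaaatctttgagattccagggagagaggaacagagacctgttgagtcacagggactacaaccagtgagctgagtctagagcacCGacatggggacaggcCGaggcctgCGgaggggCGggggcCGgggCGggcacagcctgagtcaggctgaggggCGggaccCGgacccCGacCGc

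Both channels were dim over the EDC. The median background-subtracted input signal of EDC probes was 25.3, 40.6 and 20.1 (scanner units) for R1, R2 and R3, and 47.1, 16.1 and 27.5 for C1, C2 and C3. It was 0.458 ± 0.025 times that of all other probes (SD, n = 6 arrays; two-sided exact sign-flip permutation test over arrays, p = 0.0312, the smallest 6 arrays allow). The immunoprecipitated signal was 0.349 ± 0.016 times that of other probes (SD, n = 6; exact permutation p = 0.0312). EDC probes were thus dimmer than the rest of the array in both channels, and the gap was wider in the immunoprecipitated one. Feature Extraction calls a spot well above background from its signal and the local background. Of the 403 probes, 183 (45.4%) had this call for red and green alike on each of the 6 arrays, against 67.5% of other probes, and 0 were saturated. At least 3 such probes were present in 38 of the 54 regions, and every region had at least 1.

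The level of the complex was below that of the array at large, although single regions ran from strongly negative to clearly positive. The mean over the 54 regions was -0.28, -0.43 and -0.24 for R1, R2 and R3, and -0.41, -0.22 and -0.27 for C1, C2 and C3. All 6 arrays lay below 0, and the groups overlapped. The other 21933 regions had a mean of -0.17 ± 0.036 and the EDC one of -0.31 ± 0.089 (SD, n = 6 arrays each). Within each array the EDC was lower, by a mean of 0.14 (difference -0.14 ± 0.054, SD, n = 6, lower on 6 of 6; exact sign-flip permutation p = 0.0312). The arrays share their probes, so this test covers the spread between arrays and not that between regions, whose SD within the EDC was 0.52. The direction turned round when only probes called well above background in each channel were used. The 34 EDC regions that then remained lay 0.088 above the others (exact permutation p = 0.0312). That filter acts on the same signals as the ratio, so this p-value is no separate support for either direction. With normexp background correction the difference was -0.14, and with the authors' deposited table, whose log base is assumed, -0.36.

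The direction differed with the class of probe. Probes were put into 4 classes after this had been seen, by whether they had the detection call on all 6 arrays in both channels, in input only, in the immunoprecipitated channel only, or in neither; the classes use the same signals as the ratios. EDC probes were in the last class in 36.6% of cases and other probes in 18.0%. Among probes detected in both channels, the 183 EDC probes had a mean level of 0.27 ± 0.034 and the 117383 others 0.13 ± 0.027 (SD, n = 6 arrays). The EDC was higher on 6 of 6 arrays, by 0.13 ± 0.048 (exact sign-flip permutation p = 0.0312, adjusted over 4 classes 0.0312). It was also higher in the class detected in the immunoprecipitated channel only (1.06 against 0.92, 42 EDC probes) and in the class detected in neither (-0.84 against -0.94, 147 EDC probes). In the class detected in input only, the 30 EDC probes had -2.77 ± 0.081 and the others -2.61 ± 0.11, so the EDC was lower on 6 of 6 arrays. When the 4 EDC class means were weighted by the class shares of all other probes, the EDC lay 0.11 ± 0.032 above them (n = 6, higher on 6 of 6; exact permutation p = 0.0312), whereas at its own class shares it lay 0.12 below.

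**Figure D1:**
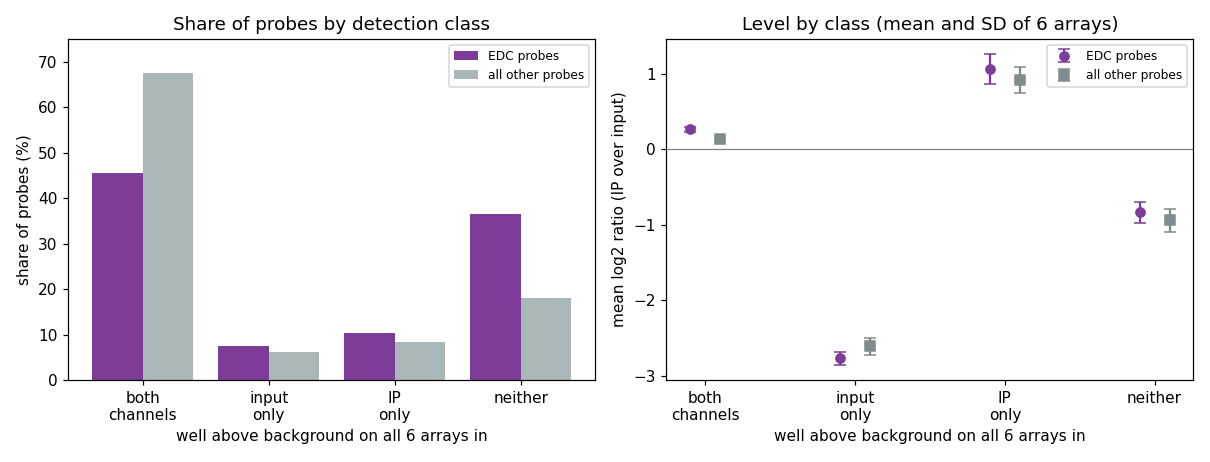
Left, the share of EDC and other probes (percent) in each detection class; right, the mean log2 ratio of each class with the SD over 6 arrays. EDC probes were detected in neither channel in 36.6% of cases against 18.0%, and within the class detected in both channels their mean was 0.27 against 0.13.

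The EDC was next compared with its surroundings and with other epidermal clusters. Of the 5 sets compared, 4 lay above the EDC on all 6 arrays. The difference was -0.15 ± 0.048 against the rest of chromosome 3 (1000 regions) and -0.15 ± 0.038 against the 1.6 Mb before the window (14 regions; SD, n = 6 arrays). Keratin clusters, which encode the filament proteins of the same cells, were placed from background knowledge of the mm9 map, and their gene content was not checked. Against the window for the type I cluster on chromosome 11 (61 regions) the EDC differed by -0.14 ± 0.023, and against that for the type II cluster on chromosome 15 (33 regions) by -0.26 ± 0.048. Each of these 4 had an exact sign-flip permutation p of 0.0312, or 0.0391 adjusted over the 5 windows (n = 6). Against the 1.6 Mb after the window (44 regions) the difference was 0.036 ± 0.033, with 5 of 6 arrays above 0 (exact permutation p = 0.0938, adjusted 0.0938, n = 6), so it did not pass. With only probes well above background, a filter on the same signals as the ratio, the differences against the rest of chromosome 3 and against the chromosome 11 and 15 windows were 0.045, 0.033 and 0.034, with exact permutation p of 0.125, 0.0938 and 0.0625 (n = 6). Against the 1.6 Mb before the window the same filter gave -0.090 (exact permutation p = 0.0312, n = 6), the median over probes -0.32 and the authors' deposited values -0.40. Against the 1.6 Mb after, normexp gave -0.091, the authors' values -0.29 and well-detected probes 0.12 (exact permutation p = 0.0312 each, n = 6). With the authors' values the differences against the rest of chromosome 3 and the chromosome 11 and 15 windows were -0.34, -0.30 and -0.56.

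**Figure D2:**
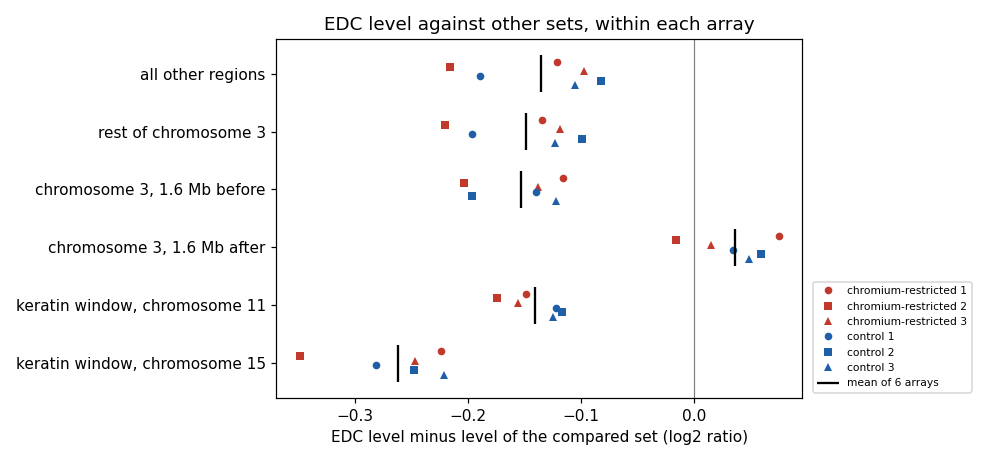
Level of the EDC minus the level of each compared set (log2 ratio, horizontal axis), 1 point per array, red for chromium-restricted and blue for control, with a bar at the mean of the 6 arrays. All points lie below 0 except those against the 1.6 Mb after the window, where 5 of 6 lie above 0.

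Brightness of the input moved with the level. The 2 arrays with the brightest input over all probes, R2 (83.9 scanner units) and C1 (98.4), had the lowest EDC levels. The array with the dimmest, C2 (38.1), had the highest. Over the 6 arrays the EDC level relative to other regions correlated with the log2 median input at Pearson r = -0.913 (exact permutation p = 0.0167, n = 6; also 0.0167 adjusted over 2 relations). Spearman rho was -0.886 (exact permutation p = 0.0333, n = 6). Leaving out C1 and C2, whose inputs lay farthest from the median, gave r = -0.914. The input is the denominator of the ratio, so the measures are not separate. A negative correlation with input brightness was found in 45 of the 54 EDC regions (83.3%) and in 63.0% of all regions.

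Regions within the complex differed far more than arrays did. A region mean over the 6 arrays ran from -1.67 to 0.70, with an SD of 0.52 between regions, against a median SD of 0.16 between arrays for 1 region. The median SD between the probes of an EDC region was larger still, 1.19. Over all regions of the array the SD between region means was 0.59, so a spread of this size was not particular to the EDC. How much of it comes from scatter between probes was not tested. A level below 0 on all 6 arrays was found in 28 regions (51.9%, against 45.9% of the other regions), and above 0 on all 6 in 8 (14.8%, against 29.4%). The remaining 18 had arrays on both sides. A mean below -1 was found in 6 EDC regions (11.1%, against 6.30%) and above 0.5 in 3 (5.56%, against 8.27%). The 6 include the pair tiled alike that is described below, whose medians over probes were -0.69 and -0.59. In the order of the 54 levels, all 53 neighbouring pairs had overlapping ranges over the arrays. This sets ranges side by side and not the levels within each array, so it is no test of the order. Levels of adjacent regions along the chromosome correlated at r = 0.162 over 53 pairs, which share arrays and are given as a description.

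**Figure D3:**
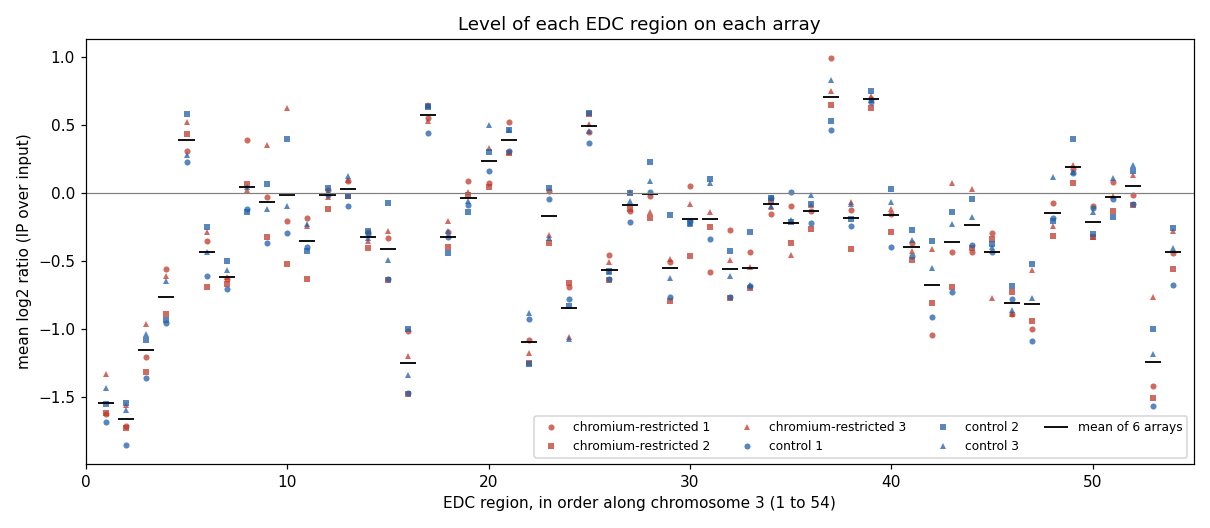
Mean log2 ratio of each of the 54 EDC regions (vertical axis) in their order along chromosome 3 (horizontal axis), 1 point per array with a bar at the mean of 6. Region means run from -1.67 at the second region to 0.70 at the 37th, and red and blue points are intermixed.

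In windows of 200 kb along the complex, the level was lowest in the first and the sixth window. The 8 regions of the first window averaged -0.72 ± 0.10 and the 2 regions of the sixth -0.81 ± 0.13 (SD, n = 6 arrays). The first window holds the 2 regions with the lowest levels, -1.67 and -1.54, which are tiled alike and described below. Its mean leans on that pair, and window means without the pair are not given here. The 10 regions of the fourth window, from 92600000 to 92799999, averaged -0.073 ± 0.080, and the 4 of the seventh -0.052 ± 0.083. The other windows lay between -0.21 ± 0.14 (window 2, 9 regions) and -0.54 ± 0.19 (window 8, 3 regions). Windows 5 and 6, with 6 and 2 regions, held no region with a mean above 0.

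The highest levels belonged to 5 regions, chosen by these values and therefore only described. The region chr3:92760350-92761646 had 0.99, 0.65 and 0.75 for R1, R2 and R3 and 0.46, 0.53 and 0.83 for C1, C2 and C3. It lay above 97.1% of all regions of the array, but only 1 of its 6 probes had the detection call throughout. The next, chr3:92794994-92796499, had 0.69, 0.62 and 0.71 against 0.67, 0.75 and 0.68, and it was the only EDC region in which all probes (8 of 8) had the detection call. Its probe means fell from 1.48 at the first probe to -0.89 near the centre and reached 1.55 at the last. The levels of chr3:92392447-92394188, chr3:92523777-92525555 and chr3:92473738-92475411 were 0.57 ± 0.081, 0.49 ± 0.086 and 0.39 ± 0.10 (SD, n = 6 arrays). The last of these held 2 detected probes of 8. Most of these levels moved with the processing. With normexp the 5 regions had 0.24, 0.62, 0.14, 0.27 and -0.12, in the order given, and in the authors' deposited values 0.078, 0.85, -0.059, 0.16 and -0.47. Of the 5, chr3:92794994-92796499 moved by less than 1.5 times under both.

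The lowest levels came in a pair that was tiled alike. The region chr3:92053269-92054834 had -1.71, -1.73 and -1.57 for R1, R2 and R3 and -1.85, -1.55 and -1.60 for C1, C2 and C3. The region chr3:92018457-92020022 had -1.63, -1.62 and -1.34 against -1.69, -1.55 and -1.44. Both lay among the lowest 2.59% of regions on the array. Their 5 probes have the same lengths and the same offsets from the region start, 34812 bp apart, and their probe means differed by at most 0.40. No other pair of EDC regions shared 3 or more such probes. The probes were not matched to the genome here, so whether the pair reports 2 loci or the same sequence in 2 copies was not tested. In each, 2 probes detected in input only had means between -4.66 and -3.87, and the first 2 probes had means between 0.58 and 0.71. The median over probes was -0.69 and -0.59, so the depth of the pair rests on those 2 probes. Without one of the pair, the EDC lay 0.11 below all other regions in place of 0.14.

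The next 3 regions in the order of levels were chosen by these values too. The region chr3:92377170-92378930 had -1.01, -1.48 and -1.20 for R1, R2 and R3 against -1.48, -1.004 and -1.34 for C1, C2 and C3. The region chr3:93479716-93481431 had -1.42, -1.51 and -0.77 against -1.57, -1.002 and -1.19. The region chr3:92119327-92120977 had -1.21, -1.32 and -0.96 against -1.36, -1.08 and -1.04. The groups overlapped in all 3. With only well-detected probes their levels were -0.44, -0.33 and -0.15, and with normexp -0.55, -0.57 and -0.50, below the -0.45 and -0.37 of the pair. The authors' deposited values gave -1.28, -0.91 and -0.82 for the 3 regions and -0.91 and -0.83 for the pair, and the median over probes gave -1.08, -0.99 and -0.53, so the order at the low end changed with the processing. The last of the 3 regions holds the EDC probe with the lowest mean, -4.88 at chr3:92120918-92120977, which had the detection call in input only. The probe with the highest mean, 2.85 at chr3:92760761-92760818, had it in the immunoprecipitated channel only.

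Single probes reached far below and above the region means. A mean below -2 was found in 36 EDC probes (8.96%) in 27 regions, against 8.59% of all probes, and 2 of the 36 were detected in both channels. A mean above 1 was found in 63 EDC probes (15.7%), against 16.8% of all probes, and 39 of the 63 were detected in both channels.

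The shape across regions also differed from that elsewhere. EDC probes within 300 bp of the region centre (136) were lower than those beyond 500 bp (183) by 0.14, 0.23 and 0.21 for R1, R2 and R3 and 0.17, 0.32 and 0.22 for C1, C2 and C3. The centre minus edge difference was -0.21 ± 0.060 in the EDC and -0.015 ± 0.0041 in all other regions (SD, n = 6 arrays). The EDC was lower in this measure by a mean of 0.20 (difference -0.20 ± 0.059, on 6 of 6 arrays; exact sign-flip permutation p = 0.0312, n = 6). The test again leaves out the spread between probes, and in bins of 200 bp the EDC means jumped between neighbours, from 0.14 to -0.54 to 0.038 over the first 3 bins. With normexp the difference was -0.073, with only well-detected probes -0.31, and with the centre within 200 bp and the edge beyond 600 bp -0.42.

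**Figure D4:**
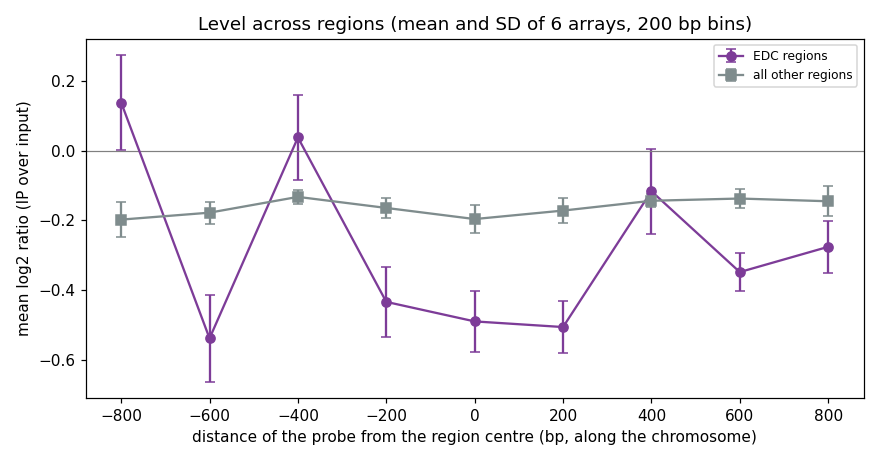
Mean log2 ratio (vertical axis) of probes in 200 bp bins by distance from the region centre (bp, horizontal axis), in EDC regions and in all other regions, with the SD over 6 arrays. The 3 central EDC bins lie between -0.51 and -0.43, and the other EDC bins run from -0.54 (at -600 bp) to 0.14 (at -800 bp). All other regions stay between -0.20 and -0.13 throughout.

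The study's comparison asked whether liver methylation of the offspring differed with the dams' diet. In the EDC no difference with diet was shown, and the group means lay closer together than the SD between arrays. The EDC level averaged -0.32 ± 0.097 over R1 to R3 and -0.30 ± 0.10 over C1 to C3 (SD, n = 3 arrays per diet), and the groups differed by -0.017 (two-sided exact permutation p = 0.7; 3 against 3 cannot go below 0.1). Each scan held 1 array per diet, and within scans 1, 2 and 3 the difference was 0.13, -0.21 and 0.029. R1 to R3 came from slide position 2 and C1 to C3 from position 4, which cannot be told apart from diet. The difference was 0.038 with R2 left out and 0.024 with C2 left out. By window of 200 kb, the differences ran from -0.063 to 0.053, with exact permutation p of 0.4 or more in all 8 (n = 3 per group).

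With limma and Benjamini-Hochberg adjustment at 0.05 over all regions, 0 of 54 EDC regions differed between the groups (0% of all 21987 regions), and the lowest adjusted p was 1.0. At an unadjusted p under 0.05 there was 1 EDC region (1.85%, against 0.891% of all regions). The restricted group had the higher mean in 22 EDC regions (40.7%, against 52.6% of all regions) and the lower mean in 32. The median difference was -0.020 in the EDC and 0.0042 over all regions tested. Single differences ran from -0.27 to 0.23 on the log2 scale, and the 95% confidence interval reached a median of 0.26 above and below a difference. A difference of at least 0.2 in size was present in 3 EDC regions (5.56%, against 2% of all regions). The groups did not overlap in 2 EDC regions (3.70%, against 4.43% of all regions), 1 higher with restriction (background 2.5%) and 1 lower (background 1.93%).

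The smallest unadjusted p in the complex belonged to chr3:92582332-92583921. It had -0.024, -0.19 and -0.14 for R1, R2 and R3 and 0.0041, 0.22 and 0.087 for C1, C2 and C3. Each of R1 to R3 lay below each of C1 to C3, and 7 of 8 probes had this direction. Its group difference of -0.22 had an SE of 0.087 and a 95% confidence interval from -0.42 to -0.020 (limma unadjusted p = 0.0345, adjusted p = 1.0), and it was -0.066 with normexp, -0.074 in the authors' deposited values and -0.086 with well-detected probes. The only other region without overlap, chr3:92451743-92453413, had 0.085, -0.015 and 0.0084 against -0.089, -0.14 and -0.060. Its difference was 0.12 (SE 0.072; limma adjusted p = 1.0), or 0.0050 with normexp and 0.046 with the median over probes.

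The other regions named for diet had groups that overlapped, and their limma unadjusted p ran from 0.0716 to 0.226. The lowest difference, -0.27 (SE 0.15; limma adjusted p = 1.0), was at chr3:92630683-92632186, with -0.59, -0.25 and -0.14 for R1, R2 and R3 and -0.34, 0.10 and 0.075 for C1, C2 and C3. It ran from -0.41 (C1) to -0.14 (R1) with 1 array left out, and was -0.068 with normexp. The highest difference, 0.23 (SE 0.11), was at chr3:92188332-92189985, with 0.39, 0.066 and 0.019 against -0.12, -0.14 and 0.040. That region ran from 0.12 (R1) to 0.30 (R3) with 1 array left out, and had -0.038 with only well-detected probes, 0.017 with normexp and 0.51 with the median over probes. The region with the highest level, chr3:92760350-92761646, differed by 0.19 (SE 0.13), and all 6 of its probes had this direction, but the difference ran from 0.093 (R1) to 0.30 (C3) with 1 array left out, and equalled 0.053 for the probe median, -0.028 under normexp and -0.025 in the authors' deposited values. At chr3:92141780-92143470 it was 0.16, with a range from 0.093 (R1 left out) to 0.26 (R2 left out), and it was -0.018 with normexp and 0.60 with the median over probes. Only 1 of the 8 probes of that region had the detection call throughout, and its immunoprecipitated signal was 0.33 scanner units. At chr3:92735640-92737362 and chr3:92460351-92461964 the difference was -0.17 each. With 1 array left out, the first ran from -0.28 (R1) to -0.097 (R3) and the second from -0.26 (R3) to -0.079 (C3). With normexp they were -0.11 and -0.049.

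**Figure D5:**
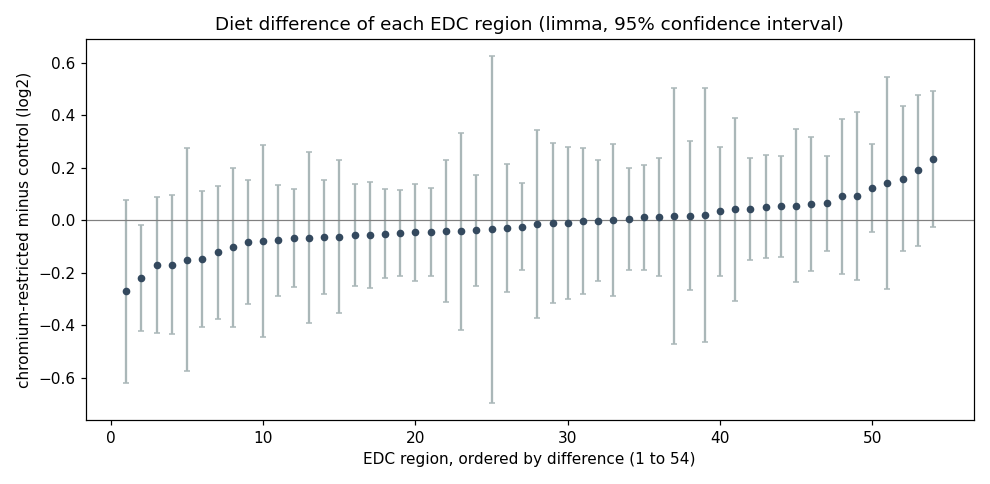
Difference between the groups (chromium-restricted minus control, log2 scale, vertical axis) of each of the 54 EDC regions, ordered by size, with limma's 95% confidence interval. The points run from -0.27 to 0.23, and 53 of the 54 intervals include 0.

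Single probes gave a like picture. With limma adjusted over all 174278 probes tested, 0 of 402 EDC probes passed (0% of all probes), and the lowest adjusted p was 1.0. At an unadjusted p under 0.05 there were 10 EDC probes (2.49%, against 1.3% of all probes). Restriction went with higher values in 6 of them (background 0.688%) and lower values in 4 (background 0.609%). Of these 10, 2 had the detection call throughout. The groups did not overlap in 18 EDC probes (4.48%, against 4.27% of all probes), 7 higher (background 2.13%) and 11 lower (background 2.14%) with restriction. The largest of the 10 differences was 0.83 (SE 0.26; limma unadjusted p = 0.0157, adjusted p = 1.0), at chr3:92154864-92154922. It had 0.69, 1.19 and 1.37 for R1, R2 and R3 and 0.12, 0.70 and -0.069 for C1, C2 and C3, so the groups overlapped by a narrow margin. A probe at chr3:92735845-92735904 had 1.27, 0.96 and 1.02 against 1.59, 1.41 and 1.73, a difference of -0.49 (SE 0.16). With input brightness as a covariate, 25 EDC probes (6.22%, against 3.91% of all probes in that fit) had an unadjusted p under 0.05 in limma and 0 passed the adjusted threshold.

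Over EDC regions, the mean correlation was not higher between arrays of the same diet. Pearson correlations between arrays, across regions that are not independent replicates, ran from 0.863 (R3 and C1) to 0.967 (R2 and C1, which had the brightest inputs). Their mean was 0.912 within groups and 0.925 between groups.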

How the data were processed

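The deposited processed signals are intensity values of Agilent Feature Extraction 11.0.1.1, background-subtracted and scaled linearly for each dye, per the file headers. Immunoprecipitated DNA was red and input green on all 6 arrays, per the labels' protocols. The authors' deposited log2 values (base assumed; method not given in the sources used here) served as an alternative. The log2 ratio of processed red over green was centred on each array's median over probes that are not controls, with no loess or quantile step. Across the array, 360 probes flagged for uneven pixels or outliers on any array were left out and saturated spots kept. Regions took the mean over their probes. limma 3.58.1 (R 4.3.3; group as the only term) was fitted to all regions and probes and tested on simulated data. Values with 1 number an array went into exact permutation tests, two-sided. No mean spot signals were used; normexp (offset 50) took the median ones. Named regions were the 5 highest and 5 lowest and 4 per direction by unadjusted p. Members, lists, tests and alternatives were chosen with earlier results of these data known. The number of arrays limits the precision. Promoter bases came from RefSeq. Figures were drawn with matplotlib 3.10.9.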

Additional observations from a re-analysis of the deposited data

How the results depend on the processing

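The counts of EDC regions and probes past limma's adjusted threshold were 0 under every alternative run. At an unadjusted p under 0.05, the 1 region became 0 with normexp (0.164% of all regions), 2 with the authors' values (0.673%), 2 with the input covariate (3.85%) and 2 with the median over probes (1.33%). When 1 array was left out, it became 0 without R2 (1.51% of all regions), 2 without R1 (0.591%) and 2 without C1 (2.54%). Without R3, C2 or C3 it stayed at 1, where the share of all regions ran from 0.541% to 1.26%. The 10 probes (2.49%, against 1.3% of all probes) became 1 with normexp (0.249% against 0.251%), 6 with the authors' values (1.49% against 0.766%), 4 with only well-detected probes (2.19% against 0.732%) and 25 with the covariate (6.22% against 3.91%), and 10 to 14 without 1 array, where the share of all probes ran from 1.0% to 2.44%. With a replicate block, which pairs arrays of 1 scan, there were 1 region (1.85%, against 0.509% of all regions) and 11 probes (2.74%, against 1.32% of all probes). In that fit 0 passed the adjusted threshold, and no call changed. Deviations of same-numbered arrays correlated at 0.145, -0.591 and 0.197 over all regions, so the numbers were not taken as pairs. Over EDC regions the same correlations were 0.571, -0.313 and 0.145. The diet difference of the EDC level was 0.0019 with the median over probes and -0.073 to 0.038 without 1 array.

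The EDC level minus other regions was reversed with only well-detected probes (0.088) and with detection classes weighted alike (0.11). Both settings choose or weight probes by the same signals as the ratio. With well-detected probes the differences were also reversed against the rest of chromosome 3 (0.045) and the chromosome 11 (0.033) and 15 (0.034) windows. Against the 1.6 Mb after the window, the difference passed the threshold with either sign: below 0 with normexp (-0.091) and the authors' values (-0.29), and above 0 with well-detected probes (0.12), the median over probes (0.099) and without one of the regions tiled alike (0.062), each with an exact permutation p of 0.0312 (n = 6). Leaving out 1 array gives 5 arrays and a smallest exact permutation p of 0.0625 (n = 5), so no such value could pass. The ranges were -0.15 to -0.12 against all other regions, -0.16 to -0.13 against the rest of chromosome 3, -0.16 to -0.14 against the 1.6 Mb before and 0.028 to 0.046 against the 1.6 Mb after. They were -0.15 to -0.13 and -0.27 to -0.24 against the chromosome 11 and 15 windows, and -0.21 to -0.18 for the centre minus edge difference. The causes were not tested. Of 118 differences of the 8 regions named for diet under the alternatives, 4 were reversed: chr3:92760350-92761646 (-0.028 with normexp, -0.025 with the authors' values), chr3:92141780-92143470 (-0.018 with normexp) and chr3:92188332-92189985 (-0.038 with well-detected probes). Of 125 levels of the 10 regions named for level, 30 moved by more than 1 SD between arrays. Sizes under normexp are not on the scale of the main ones. Its offset of 50 goes into each channel and draws ratios towards 0. The median EDC signals averaged only 29.5 (input) and 44.0 (immunoprecipitated) scanner units over the arrays. The method behind the authors' values is not given, so their scale may differ too. Leaving out one of the regions tiled alike and the weighting of classes were chosen after seeing the data. Dim probes limit what can be read: 45.4% of EDC probes had the detection call throughout.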
